A study of Homo sapiens with 18 samples.

Results

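The 9 genes IGFN1, CSMD1, KCNN3, IL13RA2, AZGP1, EML1, PLCB1, PVT1 and LYPLAL1-DT were picked, from 21411 genes counted, because their RNA differed between breast cancer cells lacking the Notch ligand Jagged1 and the parental cells. They were chosen by their counts and CPM in that contrast, Jag1KO against Jag1WT, which is therefore given without a test. Each gene was then followed through the 12 libraries outside the contrast, to see whether JAG1 siRNA gave a like difference and whether returning JAG1 reversed it. The genes had been gathered as changed only in the knockout cells, so a low number of calls with siRNA or add-back may be part of the choice and is not read as a property of knockout effects in general.

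RNA-seq was performed on spheroids of MDA-MB-231, a human triple-negative breast cancer cell line of mesenchymal character, grown for 7 days in 3D Matrigel, a basement membrane gel. There were 6 groups of 3 biological replicates. Jag1WT was the unmodified parental line. siCtrl and siJag1 were the same parental cells given control siRNA or a mixture of siRNAs against JAG1 some hours before seeding. Jag1KO had been edited with Cas9 and a guide against exon 2 of JAG1 and was an equal mixture of single-cell clones. Jag1KO + ctrl and Jag1KO + rescue were Jag1KO cells transfected with an empty plasmid or with a plasmid carrying Jagged1 cDNA, so both shared the clones of Jag1KO. Both were also grown under selection with G418, which Jag1KO, Jag1WT and the siRNA groups were not said to receive. Clones grown out without loss of JAG1 were not among the groups, so that loss of JAG1 and the passage through single cells cannot be told apart in any comparison of knockout-derived with parental cells.

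Jagged1 sits on the surface of the sending cell and activates Notch receptors on its neighbour. The cleaved receptor enters the nucleus, joins the DNA-binding protein RBPJ and switches on targets such as HES1. The 9 genes are not a pathway. They code for 3 membrane proteins (the decoy receptor IL13RA2, the potassium channel KCNN3 and the complement-control protein CSMD1), a secreted protein (AZGP1), 2 cytoskeletal proteins (IGFN1 and EML1), a signalling enzyme (PLCB1) and 2 long noncoding RNAs (PVT1 and LYPLAL1-DT).

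Libraries held 10326977 to 18321475 reads on named genes, and levels are given as CPM, the reads of a gene scaled to a common library size by the authors. JAG1 itself was at 513 ± 76.7 CPM (SD, n = 3) in Jag1WT and at 157 ± 45.1 in Jag1KO, so that reads from the edited gene were still counted. siJag1 lowered JAG1 from 532 ± 92.4 to 167 ± 35.7 CPM (log2 fold change −1.68, SE 0.21, edgeR adjusted p = 0.00418). Between Jag1KO + ctrl and siJag1 the log2 difference in JAG1 RNA was −0.34 (95% interval −0.78 to 0.09, edgeR adjusted p = 0.404). This compares RNA and not protein. The knockout cells carry an edited gene, and the paper checked the clones by DNA sequencing and Western blotting. The siRNA was a partial knockdown that left 0.31 of the JAG1 RNA of siCtrl. Whether Jagged1 protein was equally low in both groups is not shown by the counts. In Jag1KO + rescue JAG1 was at 612 ± 67.9 CPM against 131 ± 18.7 in Jag1KO + ctrl. By the summed level of 17 proliferation genes, 3 libraries stood apart from the rest of their groups: siJag1 replicate 2 at 2360 CPM against 466 and 512, Jag1KO replicate 1 at 450 against 1420 and 1650, and Jag1KO + ctrl replicate 3 at 499 against 1810 and 2610. VIM (2180 to 4950 CPM), CD44 and KRT18 were present in every library and ESR1 was at 0 in 17 of 18, as the line is known for. Other markers looked up for the line were less clear. PGR was at 0 in 6 of 18 libraries and reached 1.77 CPM, and CDH1 was at 0 in 5 and reached 1.16. ERBB2 (32.5 to 60 CPM) and EPCAM (5.18 to 8.99 CPM) were read in every library. A gene was called when the FDR (the Benjamini-Hochberg adjusted p) was below 0.05 and the fold change above 1.5.

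For 8 of the 9 genes, the knockout-derived libraries stood apart from the parental ones whether or not JAG1 had been returned. In Jag1KO against Jag1WT, which chose them, 8 genes were higher and PLCB1 was lower, with log2 fold changes of 0.92 to 4.07 in size; 1.11% of 13323 genes tested were called there, 0.48% higher and 0.63% lower, and in 13.9% the groups did not overlap. Nothing is read from these counts. Across all 18 libraries, the 9 of parental origin and the 9 of knockout origin did not overlap for 8 of the 9 genes, while 1.06% of the genes tested separated in this way. The libraries that chose the genes are among these 18. LYPLAL1-DT was the exception, since siJag1 replicate 3 (9.58 CPM) lay above Jag1KO + ctrl replicate 2 (6.29 CPM). The gap was widest for CSMD1, where the lowest knockout-derived library was 8.13 times the highest parental one, and narrowest for EML1 at 1.31 times. In bulk RNA of a clone mixture, a changed share of cells that make an RNA and a changed amount per cell cannot be told apart.

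**Figure D1:**
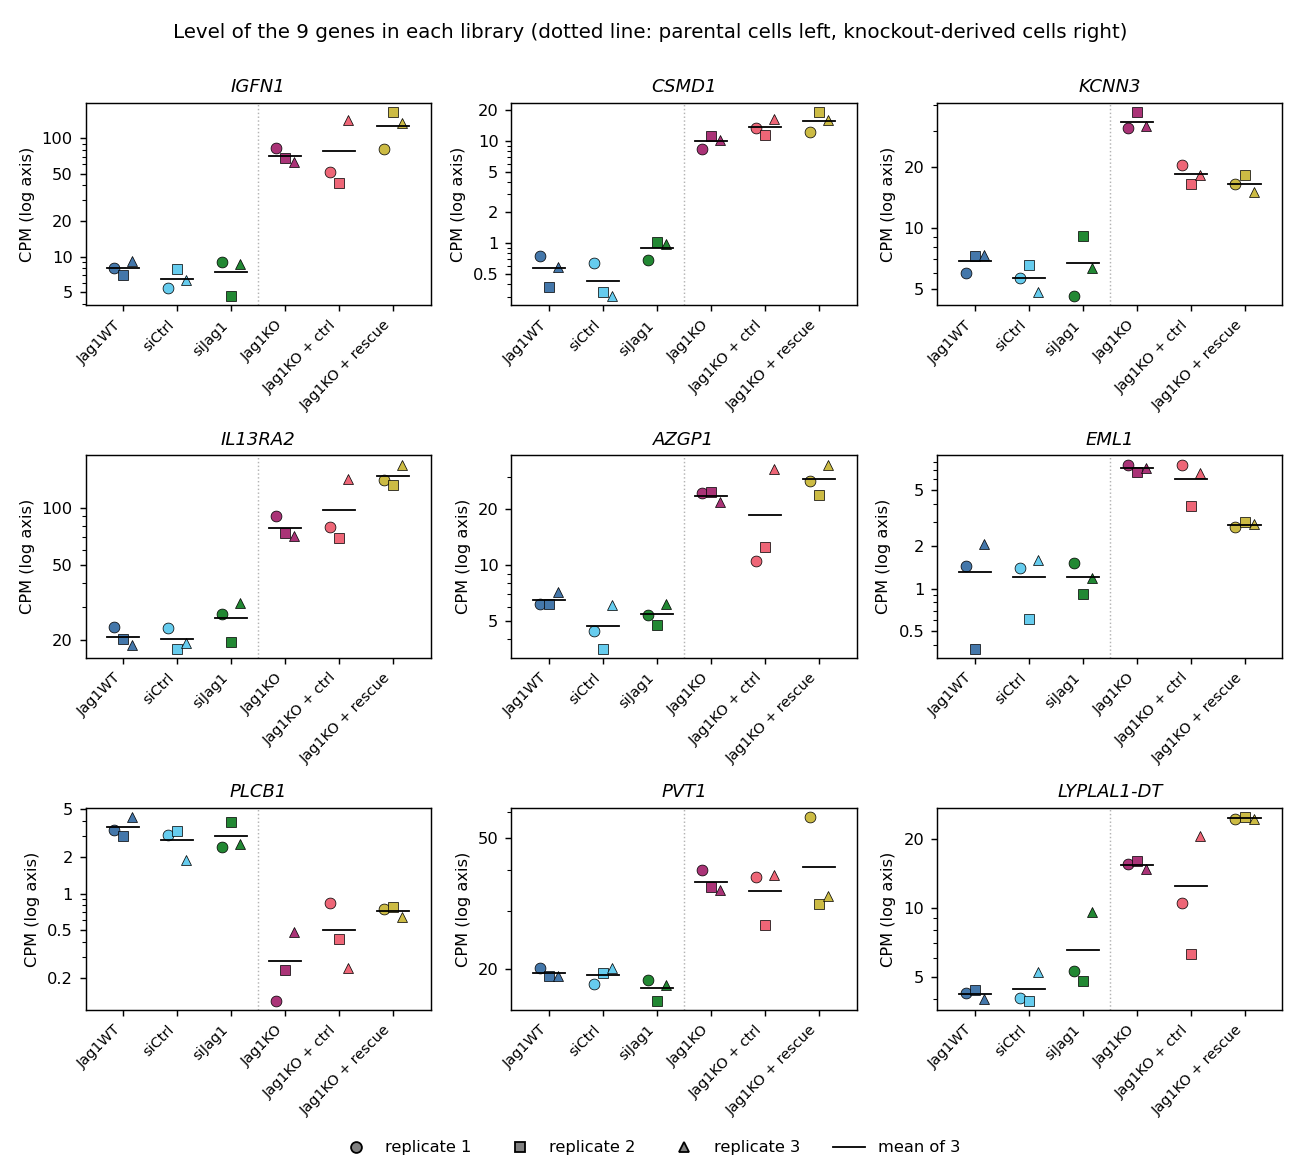
Level of each of the 9 genes in the 18 libraries, in CPM on a log axis, by group; marker shape gives the replicate number, the black line the mean of 3, and the dotted line divides the 3 parental groups from the 3 knockout-derived groups. For 8 genes all points right of the line lie above, or for PLCB1 below, all points left of it, and for LYPLAL1-DT 1 siJag1 library lies above 1 Jag1KO + ctrl library.

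The difference was then read in Jag1KO + ctrl against siCtrl, libraries outside the contrast that chose the genes. Both carry a control treatment, but the plasmid and G418 were given to the former only and the siRNA transfection to the latter only. The genes were gathered with results of the siRNA and add-back comparisons known, for which these 2 groups are the controls, so the tests below are not independent of the choice. All 9 genes were called in the direction first seen, against 4.32% of the genes tested, and the groups overlapped for none of the 9 (23.6% of the genes tested did not overlap). The cells of Jag1KO + ctrl come from the same clones as Jag1KO, so this repeats the difference in other cultures of the same cells and not in other clones. Called genes numbered 0 of 9 in siJag1 against siCtrl, where 6 of 13323 genes (0.045%) were called and where 1 of the 9 genes, against 3.92% of all, had an unadjusted p below 0.05. In Jag1KO + rescue against Jag1KO + ctrl, 1 of 9 was called, LYPLAL1-DT, and it was higher with JAG1 returned, where 16.3% of the genes tested were called and 5.99% were called higher. In that comparison 2 of 9, EML1 and LYPLAL1-DT, did not overlap between the groups, as did not 32.1% of the genes tested. After add-back, 8 of 9 were still called against siCtrl (4.02% of the genes tested), EML1 being the exception. The siRNA and knockout effects were compared directly as Jag1KO + ctrl against siJag1, and 8 of 9 differed (2.64% of the genes tested), LYPLAL1-DT being the exception. These comparisons share the siCtrl or the Jag1KO + ctrl libraries and are not independent of each other. Without the 3 libraries that stood apart, 9 of 9 were called in Jag1KO + ctrl against siCtrl, 0 with siRNA, 4 with add-back, 8 in Jag1KO + rescue against siCtrl and 8 in Jag1KO + ctrl against siJag1. In fits of only the libraries compared, 6 of 9 were called in Jag1KO + ctrl against siCtrl, the calls of AZGP1, PVT1 and LYPLAL1-DT being lost, and 1 of 9, CSMD1, against siJag1. The share of all genes called changes with the libraries fitted, and for add-back it was 31.2% without Jag1KO + ctrl replicate 3 alone. Shares for the reduced fits of this paragraph are not given here, so their counts are not set against all genes. All 9 passed the filter of 1 CPM in at least 3 libraries, CSMD1 through the knockout-derived libraries (above 1 CPM in 9 of 9, and in 1 of 9 parental ones) and PLCB1 through the parental libraries (9 of 9, and 0 of 9), so a difference was built into their being tested.

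**Figure D2:**
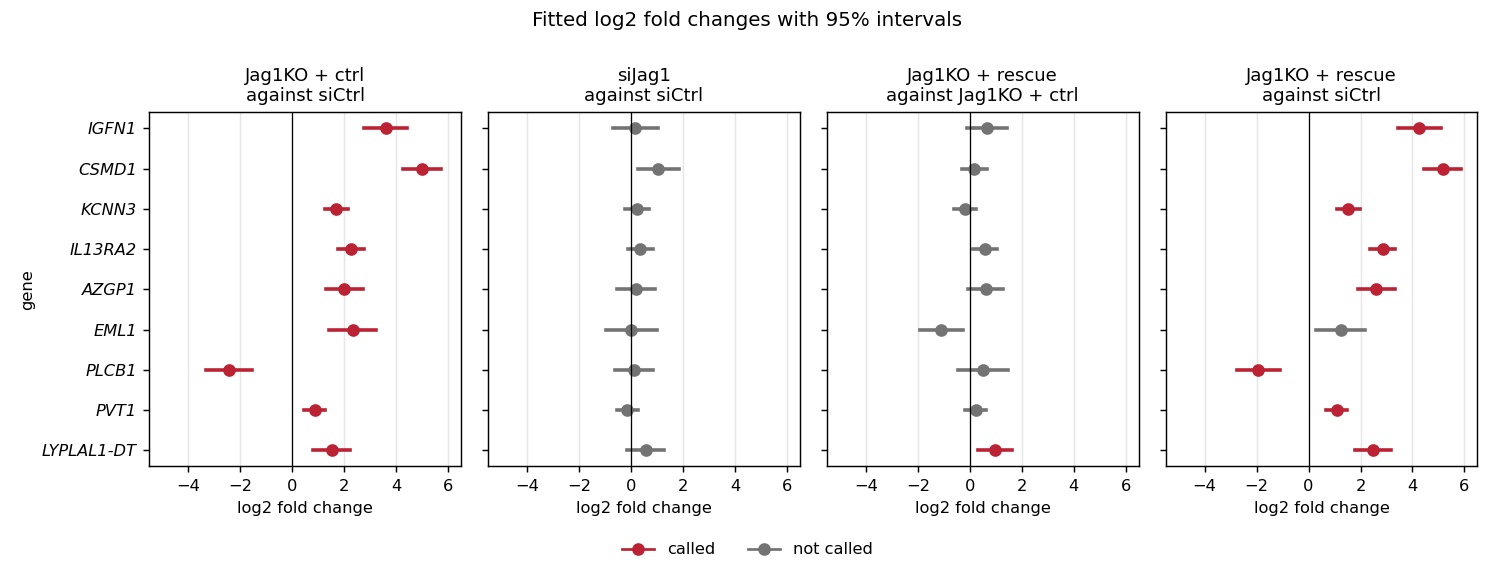
Fitted log2 fold change (dot) and 95% interval (line) of each gene in 4 comparisons, red where called. With the empty plasmid all 9 genes differ from siCtrl, by 0.86 (PVT1) to 4.99 (CSMD1) in size, and with the JAG1 plasmid all but EML1 are called; siRNA estimates lie between −0.14 and 1.04, and add-back moved EML1 towards the parental level (log2 −1.10, not called) and LYPLAL1-DT away from it (0.97, called).

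Promoter windows of 250 bases before to 50 bases after a start, from RefSeq on GRCh38.p14, were found for 5 of the 9 genes (IGFN1, KCNN3, AZGP1, EML1 and LYPLAL1-DT). They were searched on both strands for TGGGAA, the core of the sequence RBPJ is known to bind, which 24% of all 35116 promoters hold. It was present in 4 of the 8 windows of these genes, all 3 of KCNN3 and 1 of 2 of EML1. Windows of the same gene are not independent, so the 4 of 8 are not set against the 24% of all promoters. Enrichment of the core was not tested. EML1 and KCNN3 are shown as the genes that hold it, IGFN1 as the largest change among those with a window and LYPLAL1-DT as the gene called with add-back, each at its outermost start and 5′ to 3′ on the strand of the gene, with the letters of the search (TTCCCA where the match is on the other strand) in capitals.
EML1 (chr14:99737472-99737771, plus strand): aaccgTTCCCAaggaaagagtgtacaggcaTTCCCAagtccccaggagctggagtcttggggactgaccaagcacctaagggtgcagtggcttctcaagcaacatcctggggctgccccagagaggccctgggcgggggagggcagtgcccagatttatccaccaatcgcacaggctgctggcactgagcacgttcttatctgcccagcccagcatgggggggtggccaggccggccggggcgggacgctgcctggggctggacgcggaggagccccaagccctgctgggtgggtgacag
KCNN3 (chr1:154870232-154870531, minus strand): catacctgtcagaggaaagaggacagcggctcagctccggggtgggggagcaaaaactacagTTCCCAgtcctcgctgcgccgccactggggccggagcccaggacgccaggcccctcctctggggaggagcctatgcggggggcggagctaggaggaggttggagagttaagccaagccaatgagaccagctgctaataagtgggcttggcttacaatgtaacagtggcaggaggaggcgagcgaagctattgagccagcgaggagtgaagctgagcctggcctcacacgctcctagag
IGFN1 (chr1:201190574-201190873, plus strand): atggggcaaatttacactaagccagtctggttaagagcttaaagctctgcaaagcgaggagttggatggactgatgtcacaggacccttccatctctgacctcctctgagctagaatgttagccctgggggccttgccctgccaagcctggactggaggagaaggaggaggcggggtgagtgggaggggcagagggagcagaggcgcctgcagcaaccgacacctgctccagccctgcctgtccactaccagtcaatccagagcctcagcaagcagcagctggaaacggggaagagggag
LYPLAL1-DT (chr1:219173739-219174038, minus strand): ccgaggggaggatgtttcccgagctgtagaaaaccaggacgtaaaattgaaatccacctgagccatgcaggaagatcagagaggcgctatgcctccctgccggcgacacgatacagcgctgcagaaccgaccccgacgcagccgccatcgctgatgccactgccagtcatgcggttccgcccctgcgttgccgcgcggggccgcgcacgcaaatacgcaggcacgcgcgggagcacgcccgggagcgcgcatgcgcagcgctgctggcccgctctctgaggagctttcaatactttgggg
In EML1 the letters lay 245 and 220 bases before the start, and in KCNN3 188 bases before it. The windows of IGFN1, AZGP1 and LYPLAL1-DT had none. LYPLAL1-DT had 33 CG pairs in its 300 bases and IGFN1 had 5, against a median of 14 over all promoters. The counts do not show which start was used. HES1, the target of this factor named above, fell in Jag1KO + ctrl against siCtrl (log2 −3.90, SE 0.65, edgeR adjusted p = 0.00275) and rose with add-back (3.78, SE 0.65, edgeR adjusted p = 0.00500). With siRNA it was not called (log2 −1.59, edgeR adjusted p = 0.999). HES1 was the one of 5 tested Notch targets called in these comparisons, and 0 of 5 were called with siRNA.

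Among the membrane proteins, IL13RA2 had the highest level. IL13RA2 binds interleukin-13 tightly without passing on the usual signal, in contrast to the signalling pair IL13RA1 and IL4R. It was at 23.5, 20.4 and 18.9 CPM in Jag1WT, 90.2, 73.3 and 71.4 in Jag1KO, 23.3, 18.1 and 19.3 in siCtrl and 27.7, 19.6 and 31.3 in siJag1. It was at 79.5, 69.3 and 142 CPM in Jag1KO + ctrl and at 140, 132 and 169 in Jag1KO + rescue. The lowest knockout-derived library had 69.3 CPM and the highest parental one 31.3. IL13RA2 rose 4.81-fold in Jag1KO + ctrl against siCtrl (log2 2.27, SE 0.23, edgeR adjusted p = 4.51e-05). No such rise was seen with siRNA: the log2 fold change was 0.36 (95% interval −0.13 to 0.86, edgeR adjusted p = 0.999), and Jag1KO + ctrl exceeded siJag1 by 1.90 (SE 0.23, edgeR adjusted p = 0.000273). The call against siJag1 was lost in the fit of those libraries alone (edgeR adjusted p = 0.0825). Add-back did not reverse the rise, and the estimate went further up (0.58, SE 0.22, edgeR adjusted p = 0.0664). The signalling receptors stayed uncalled, IL13RA1 at 111 ± 5.93 CPM in Jag1KO + ctrl and 122 ± 2.67 in siCtrl, and IL4R at 68.8 ± 7.44 and 84.0 ± 4.24. Of 11 tested genes of interleukin-4 and interleukin-13 signalling, 0 were called in Jag1KO + ctrl against siCtrl.

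KCNN3 encodes a small-conductance potassium channel that opens when calcium rises inside the cell. Its level was 6.00, 7.22 and 7.37 CPM in Jag1WT and 30.9, 37.0 and 31.8 in Jag1KO. In siCtrl it was 5.66, 6.54 and 4.80, and in siJag1 4.59, 9.14 and 6.29. The plasmid-bearing knockout cells were intermediate, at 20.3, 16.4 and 18.2 CPM in Jag1KO + ctrl and 16.4, 18.1 and 14.9 in Jag1KO + rescue, and overlapped neither Jag1KO nor any parental group. KCNN3 rose 3.23-fold in Jag1KO + ctrl against siCtrl (log2 1.69, SE 0.21, edgeR adjusted p = 0.000283). No such change was detected with siRNA (log2 0.23, 95% interval −0.22 to 0.68, edgeR adjusted p = 0.999), and Jag1KO + ctrl exceeded siJag1 by 1.46 (SE 0.20, edgeR adjusted p = 0.000995). The call against siJag1 was lost in the fit of those libraries alone (edgeR adjusted p = 0.0974). The siRNA estimate turned to −0.08 without siJag1 replicate 2. Add-back did not reverse the rise (log2 −0.17, 95% interval −0.59 to 0.25, edgeR adjusted p = 0.530). The larger step lay between Jag1KO and Jag1KO + ctrl, where the log2 difference was −0.87 and the groups did not overlap, as did not 10.1% of the genes tested. The Jag1KO libraries had chosen the gene, so this step is given without a test. KCNN4, the intermediate-conductance channel of the same family, had another pattern. It was lower with JAG1 returned (10.7 ± 3.02 CPM against 25.9 ± 5.00, log2 −1.29, SE 0.19, edgeR adjusted p = 0.00344) and not called between Jag1KO + ctrl and siCtrl (−0.10). Of 15 tested genes of calcium-activated potassium channels and store-operated calcium entry, 0 were higher and 1, CSNK2A1, was lower in Jag1KO + ctrl against siCtrl.

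CSMD1, a large membrane protein of CUB and sushi domains that restrains complement, went from nearly unread to clearly detected. It had 4 to 19 reads in the 9 parental libraries and 108 to 275 in the 9 knockout-derived ones. In CPM these were 0.757, 0.376 and 0.587 in Jag1WT, 0.636, 0.337 and 0.304 in siCtrl and 0.680, 1.03 and 0.979 in siJag1. They were 8.35, 11.1 and 10.3 in Jag1KO, 13.4, 11.4 and 16.5 in Jag1KO + ctrl and 12.3, 19.0 and 15.9 in Jag1KO + rescue. CSMD1 was above 1 CPM in 9 of 9 knockout-derived libraries and in 1 of 9 parental ones. It passed the filter through the former, so a difference was built into its being tested, and the values below only describe it. The fitted increase in Jag1KO + ctrl against siCtrl was 31.7-fold, the largest of the 9 (log2 4.99, SE 0.34, edgeR adjusted p = 1.85e-07). On log2(CPM + 1), where the added 1 shrinks differences of low genes, it was 3.37 (limma adjusted p = 3.09e-08). With siRNA, CSMD1 was the one gene whose groups did not overlap (10.5% of the genes tested) and whose unadjusted p was below 0.05 (0.0106). The siRNA estimate of log2 1.04 (SE 0.37) rested on 4 to 19 reads a library and was not called (edgeR adjusted p = 0.999), and Jag1KO + ctrl exceeded siJag1 by 3.94 (SE 0.28, edgeR adjusted p = 1.04e-06). Add-back did not lower CSMD1 (log2 0.18, 95% interval −0.31 to 0.66, edgeR adjusted p = 0.574).

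AZGP1 encodes zinc-alpha-2-glycoprotein, a secreted lipid-mobilizing protein with the fold of MHC class I molecules. It was at 6.19, 6.16 and 7.17 CPM in Jag1WT, 4.46, 3.57 and 6.09 in siCtrl and 5.39, 4.76 and 6.22 in siJag1. The knockout-derived libraries had 24.5, 24.7 and 22.0 CPM in Jag1KO, 10.6, 12.5 and 33 in Jag1KO + ctrl and 28.5, 23.8 and 34.8 in Jag1KO + rescue. The Jag1KO + ctrl libraries were spread most, with replicate 3 far above the other two. AZGP1 rose 4.00-fold in Jag1KO + ctrl against siCtrl (log2 2.00, SE 0.34, edgeR adjusted p = 0.00303), a call lost in the fit of those 6 libraries alone (edgeR adjusted p = 0.0793). Without Jag1KO + ctrl replicate 3 the log2 fold change fell to 1.30 (edgeR adjusted p = 0.00113), and that against siJag1 to 1.10. No such rise was detected with siRNA (log2 0.21, 95% interval −0.53 to 0.94, edgeR adjusted p = 0.999), and Jag1KO + ctrl exceeded siJag1 by 1.79 (SE 0.33, edgeR adjusted p = 0.00847), though not without siJag1 replicate 1 (edgeR adjusted p = 0.0519). The call against siJag1 was also lost in the fit of those libraries alone (edgeR adjusted p = 0.186). The rise was not reversed by add-back (log2 0.61, SE 0.32, edgeR adjusted p = 0.154). Of 17 tested genes of MHC class I fold proteins 0 were called in Jag1KO + ctrl against siCtrl. B2M, the light chain of MHC class I molecules themselves, differed by 0.05 on the log2 scale.

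IGFN1, a protein of immunoglobulin and fibronectin III domains known from skeletal muscle, had the second largest increase. Its levels were 8.02, 7.07 and 9.26 CPM in Jag1WT, 5.45, 7.89 and 6.32 in siCtrl and 8.96, 4.65 and 8.74 in siJag1. They were 82.6, 67.7 and 63.0 CPM in Jag1KO, 52.1, 42.2 and 141 in Jag1KO + ctrl and 81.4, 165 and 135 in Jag1KO + rescue. The lowest knockout-derived library exceeded the highest parental one 4.56 times. In Jag1KO + ctrl against siCtrl IGFN1 rose 12.0-fold (log2 3.59, SE 0.39, edgeR adjusted p = 0.000151), and without Jag1KO + ctrl replicate 3 the log2 fold change was 2.85 (edgeR adjusted p = 5.17e-05). No such rise was seen with siRNA, with a log2 fold change of 0.17 (95% interval −0.70 to 1.04, edgeR adjusted p = 0.999) and a further 3.42 (SE 0.39, edgeR adjusted p = 0.000242) from siJag1 to Jag1KO + ctrl (2.68 without that replicate). The call against siJag1 was lost in the fit of those libraries alone (edgeR adjusted p = 0.0779). Add-back did not reverse the rise (log2 0.68, 95% interval −0.10 to 1.45, edgeR adjusted p = 0.172). Markers of skeletal muscle were at or near 0 in all libraries: MYH7 and MYOG were at 0 in 17 of 18, and ACTA1 reached 0.779 CPM. Of 9 tested sarcomere and related immunoglobulin and fibronectin III genes, 1 was higher and 0 were lower in Jag1KO + ctrl against siCtrl, and the 1 was MYPN, myopalladin of the Z-disc (log2 0.84, SE 0.19, edgeR adjusted p = 0.0194).

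EML1 binds microtubules and is needed for the spindle orientation of dividing progenitors. It was the one gene of the 9 whose add-back groups stood apart in the direction of the parental level. Its level was 1.45, 0.376 and 2.09 CPM in Jag1WT, 1.41, 0.607 and 1.60 in siCtrl and 1.53, 0.919 and 1.19 in siJag1. In Jag1KO it was 7.63, 6.80 and 7.26 and in Jag1KO + ctrl 7.55, 3.89 and 6.68, and in Jag1KO + rescue 2.73, 2.97 and 2.87. The rescue libraries thus lay between the parental and the other knockout-derived ones, with no overlap on either side. EML1 rose 5.02-fold in Jag1KO + ctrl against siCtrl (log2 2.33, SE 0.43, edgeR adjusted p = 0.00503), and no such change was seen with siRNA (log2 0.01, 95% interval −0.97 to 0.98, edgeR adjusted p = 0.999). The siRNA estimate was of either sign, −0.33 without siCtrl replicate 2 and −0.19 without siJag1 replicate 1. From siJag1 to Jag1KO + ctrl EML1 rose by 2.32 (SE 0.42, edgeR adjusted p = 0.00689), a call lost in the fit of those libraries alone (edgeR adjusted p = 0.0632). The decrease with add-back was log2 −1.10 (SE 0.39, 95% interval −1.92 to −0.27) and just missed the call (edgeR adjusted p = 0.0505). It was called without Jag1WT replicate 2, Jag1WT replicate 3, siCtrl replicate 2 or siJag1 replicate 2 in the fit (lowest edgeR adjusted p = 0.0222), and with DESeq2 (adjusted p = 0.0231), and not in the fit of the 6 libraries compared. Limma on log2(CPM + 1) (limma adjusted p = 0.0348) and the filter of 1 CPM in at least 9 libraries (edgeR adjusted p = 0.0457) also called it. With the replicate number as a block it was called over all libraries (edgeR adjusted p = 0.0176), and not over those compared (edgeR adjusted p = 0.0816). Over the fits that left out 1 library the highest edgeR adjusted p was 0.182. Against siCtrl, Jag1KO + rescue remained 2.35-fold higher in the estimate (log2 1.23, SE 0.44, edgeR adjusted p = 0.105), called without Jag1WT replicate 2 (edgeR adjusted p = 0.0481) and with DESeq2 (adjusted p = 0.0404). Replicate numbers paired these 2 groups, and in the blocked fit the difference was called (log2 1.29, SE 0.36, edgeR adjusted p = 0.0312). Of 9 tested genes of the EML family list, 0 were called in Jag1KO + ctrl against siCtrl and 1 in the add-back, EML3, which was lower (log2 −0.84, SE 0.15, edgeR adjusted p = 0.00502).

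PLCB1, phospholipase C beta 1, turns signals of Gq-coupled receptors into inositol trisphosphate and diacylglycerol, and it was the one gene lower in the knockout. It had 25 to 72 reads in parental libraries and 2 to 14 in knockout-derived ones. PLCB1 was above 1 CPM in 9 of 9 parental libraries and in 0 of 9 knockout-derived ones. It passed the filter through the former, so a difference was built into its being tested, and the values below only describe it. Jag1WT had 3.35, 3.01 and 4.30 CPM, siCtrl 3.04, 3.30 and 1.90 and siJag1 2.44, 3.89 and 2.59. Jag1KO had 0.130, 0.232 and 0.478 CPM, Jag1KO + ctrl 0.839, 0.419 and 0.241 and Jag1KO + rescue 0.750, 0.778 and 0.645. The lowest parental library was 2.27 times the highest knockout-derived one. PLCB1 fell by 2.44 on the log2 scale in Jag1KO + ctrl against siCtrl (SE 0.41, edgeR adjusted p = 0.00247), and on log2(CPM + 1) the difference was −1.32 (limma adjusted p = 0.00105). No loss was seen with siRNA (log2 0.11, 95% interval −0.62 to 0.83, edgeR adjusted p = 0.999), with −0.09 without siCtrl replicate 3 and −0.15 without siJag1 replicate 2, and Jag1KO + ctrl was 2.55 below siJag1 on the log2 scale (log2 −2.55, SE 0.41, edgeR adjusted p = 0.00249). Add-back did not bring it back (log2 0.51, 95% interval −0.45 to 1.46, edgeR adjusted p = 0.397), and Jag1KO + rescue remained below siCtrl by a log2 fold change of −1.93 (SE 0.39, edgeR adjusted p = 0.00903), a call lost without Jag1KO + rescue replicate 3 (edgeR adjusted p = 0.0563). The difference from siJag1 was not called in the fit of the Jag1KO + ctrl and siJag1 libraries alone (edgeR adjusted p = 0.0936). Each rescue library had 11 reads of PLCB1.

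PLCB1 lies on the chromosome of JAG1 itself, and its neighbour moved the other way. In the GRCh38.p14 annotation of RefSeq, the build of the counts, PLCB1 is at chr20:8132266-8884900 on the plus strand and JAG1 at chr20:10637684-10673999 on the minus strand, with 2.54 Mb between their starts. PLCB4, the gene of a second phospholipase C beta, lies between them. PLCB4 was at 2.14 ± 0.392 CPM in siCtrl, 3.14 ± 1.34 in siJag1, 8.92 ± 1.51 in Jag1KO + ctrl and 8.75 ± 1.32 in Jag1KO + rescue. It rose in Jag1KO + ctrl against siCtrl (log2 2.06, SE 0.30, edgeR adjusted p = 0.000898) and against siJag1 (1.51, SE 0.28, edgeR adjusted p = 0.00937). It was not called with siRNA (0.55, SE 0.31, edgeR adjusted p = 0.999) or add-back (−0.05, SE 0.27, edgeR adjusted p = 0.911). Of the 6 other genes tested within 2.5 Mb of JAG1, PLCB4 was the one called, and MKKS and SLX4IP, which lie 203462 and 202379 bases from JAG1, were not. TMX4 on the other side of PLCB1 was not called either. PLCB3, another member of the family, was at 61.9 ± 5.60 CPM in siCtrl and 70.7 ± 14.7 in Jag1KO + ctrl and was not called. Of 21 tested genes of phospholipase C and Gq signalling, 2 were higher (PLCB4 and PLCH2) and 0 lower in Jag1KO + ctrl against siCtrl.

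**Figure D3:**
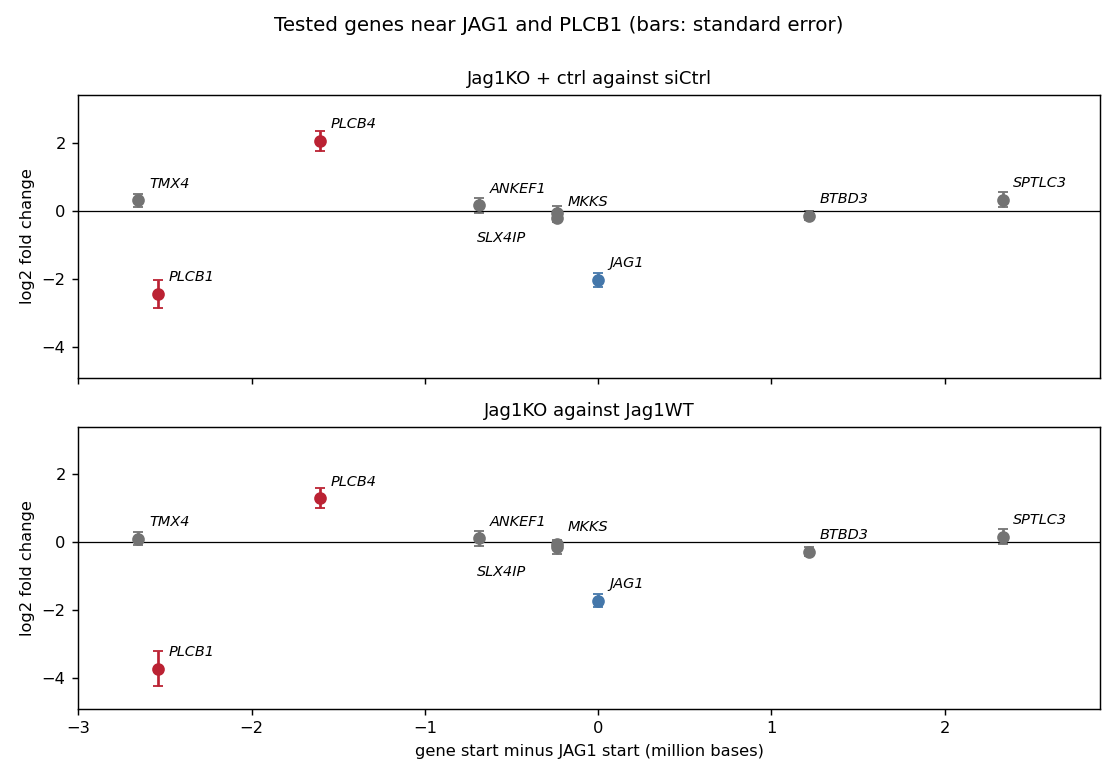
Log2 fold change (dot) and standard error (bar) of the tested genes near JAG1 and PLCB1, against the distance of their start from the JAG1 start in Mb, for Jag1KO + ctrl against siCtrl (top) and Jag1KO against Jag1WT (bottom, the contrast that chose PLCB1). PLCB1 lies near −2.44 and PLCB4 near 2.06 in the upper panel, while genes closer to JAG1 lie near 0.

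The 2 noncoding RNAs differed in how far they moved. PVT1 is transcribed next to MYC on chromosome 8 and is often amplified with it in tumours. It was at 20.1, 19.1 and 19.0 CPM in Jag1WT, 18, 19.4 and 20.2 in siCtrl and 18.5, 16.0 and 17.9 in siJag1. It was at 40.0, 35.5 and 34.8 CPM in Jag1KO, 38.1, 27.2 and 38.6 in Jag1KO + ctrl and 58.1, 31.5 and 33.3 in Jag1KO + rescue. The parental libraries lay within a narrow range and below every knockout-derived one. PVT1 rose 1.81-fold in Jag1KO + ctrl against siCtrl (log2 0.86, SE 0.19, edgeR adjusted p = 0.0176), the smallest change of the 9. That call was lost without any one siCtrl library or without Jag1KO + ctrl replicate 1 (highest edgeR adjusted p = 0.0872), and in the fit of the 6 libraries compared (edgeR adjusted p = 0.0503). No such rise was seen with siRNA (log2 −0.14, 95% interval −0.56 to 0.27, edgeR adjusted p = 0.999), and Jag1KO + ctrl exceeded siJag1 by 1.00 (SE 0.19, edgeR adjusted p = 0.0108), though not without Jag1KO + ctrl replicate 1 (edgeR adjusted p = 0.0534). The call against siJag1 was also lost in the fit of those libraries alone (edgeR adjusted p = 0.0891). Add-back did not reverse the rise (log2 0.22, 95% interval −0.18 to 0.63, edgeR adjusted p = 0.384), an estimate that turned to −0.11 without Jag1KO + rescue replicate 1. MYC had another pattern, at 413 ± 60.4 CPM in siCtrl, 321 ± 125 in Jag1KO + ctrl and 565 ± 83.0 in Jag1KO + rescue. It was not called in Jag1KO + ctrl against siCtrl (log2 −0.36) and rose with add-back (0.79, SE 0.26, edgeR adjusted p = 0.0357). Of 9 tested genes of MYC and its network, 0 were higher and 1 was lower in Jag1KO + ctrl against siCtrl, and the 1 was CCAT1, a noncoding RNA also transcribed near MYC (log2 −2.58, SE 0.44, edgeR adjusted p = 0.00288). CCAT1 was not called with siRNA or add-back, and in the add-back 3 of the 9 were higher and 2 lower.

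LYPLAL1-DT is a divergent transcript that starts 81 bases from LYPLAL1, on the other strand. It was at 4.23, 4.36 and 3.98 CPM in Jag1WT, 4.03, 3.91 and 5.25 in siCtrl and 5.27, 4.76 and 9.58 in siJag1. It was at 15.6, 16.1 and 14.8 CPM in Jag1KO, 10.5, 6.29 and 20.7 in Jag1KO + ctrl and 24.5, 25.1 and 24.6 in Jag1KO + rescue. The rescue libraries were the highest and the Jag1KO + ctrl libraries the most spread. LYPLAL1-DT rose 2.85-fold in Jag1KO + ctrl against siCtrl (log2 1.51, SE 0.33, edgeR adjusted p = 0.0157), a call lost without siCtrl replicate 1 or siCtrl replicate 2 (highest edgeR adjusted p = 0.0834) and in the fit of the 6 libraries compared (edgeR adjusted p = 0.122). Over the fits that left out 1 library the log2 fold change ran from 0.934 to 1.83. With siRNA the estimate was 0.56 (95% interval −0.16 to 1.28, edgeR adjusted p = 0.999), and Jag1KO + ctrl did not differ from siJag1 at the threshold (0.95, SE 0.32, edgeR adjusted p = 0.122), so that for this gene siRNA and knockout were not told apart. That difference was called without Jag1KO + ctrl replicate 2 (edgeR adjusted p = 0.0377). Add-back raised it a further 1.95-fold (log2 0.97, SE 0.32, edgeR adjusted p = 0.0381), a call lost without Jag1KO + ctrl replicate 1 or 2 or any one rescue library (highest edgeR adjusted p = 0.156). LYPLAL1 itself, a thioesterase-like hydrolase, was at 21.1 ± 1.69 CPM in siCtrl, 17.7 ± 2.40 in Jag1KO + ctrl and 22.5 ± 0.871 in Jag1KO + rescue and was not called in any of these comparisons.

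Of single libraries, Jag1KO + ctrl replicate 3 changed the add-back calls most. It had 141 CPM of IGFN1, 142 of IL13RA2, 33 of AZGP1 and 20.7 of LYPLAL1-DT, near the rescue libraries, while replicates 1 and 2 were lower for all 4 genes. The other members did not all share this. For EML1 (6.68 CPM against 2.73 to 2.97 in rescue) and PLCB1 (0.241 against 0.645 to 0.778) this library lay away from rescue. For KCNN3 it was at 18.2 CPM, between replicates 2 (16.4) and 1 (20.3), and for PVT1 at 38.6, beside replicate 1 (38.1). For CSMD1 this library was at 16.5 CPM, within the rescue range of 12.3 to 19. It was also near the rescue libraries in the summed level of the 17 proliferation genes, at 499 CPM against 443 to 872 in Jag1KO + rescue. Without Jag1KO + ctrl replicate 3, 4 of 9 genes were called in Jag1KO + rescue against Jag1KO + ctrl, and all 4 were higher with JAG1 returned, where 31.2% of the genes tested were called. These were IGFN1 (log2 1.41, SE 0.27, edgeR adjusted p = 0.00169), IL13RA2 (0.97, SE 0.18, edgeR adjusted p = 0.00115), AZGP1 (1.31, SE 0.20, edgeR adjusted p = 0.000441) and LYPLAL1-DT (1.54, edgeR adjusted p = 0.000667). With all libraries, 6 of 9 estimates of the add-back lay in the direction of the knockout difference and 3 (KCNN3, EML1 and PLCB1) against it. The siRNA effect was also set against the effect of the empty plasmid relative to the JAG1 plasmid, as a difference of log2 fold changes. This was called for 0 of 9 genes (1.4% of the genes tested), with 3 of 9 at an unadjusted p below 0.05 (22.4% of the genes tested): LYPLAL1-DT (1.52, edgeR adjusted p = 0.0868), CSMD1 (1.22, 0.117) and IL13RA2 (0.94, 0.113). Without Jag1KO + ctrl replicate 3 it was called for 5 of 9. The 1.4% above is of the fit with all libraries. The share of all genes without that replicate is not given here, so the 5 of 9 are not set against it. The part of the proliferation state in these differences was not tested.

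**Figure D4:**
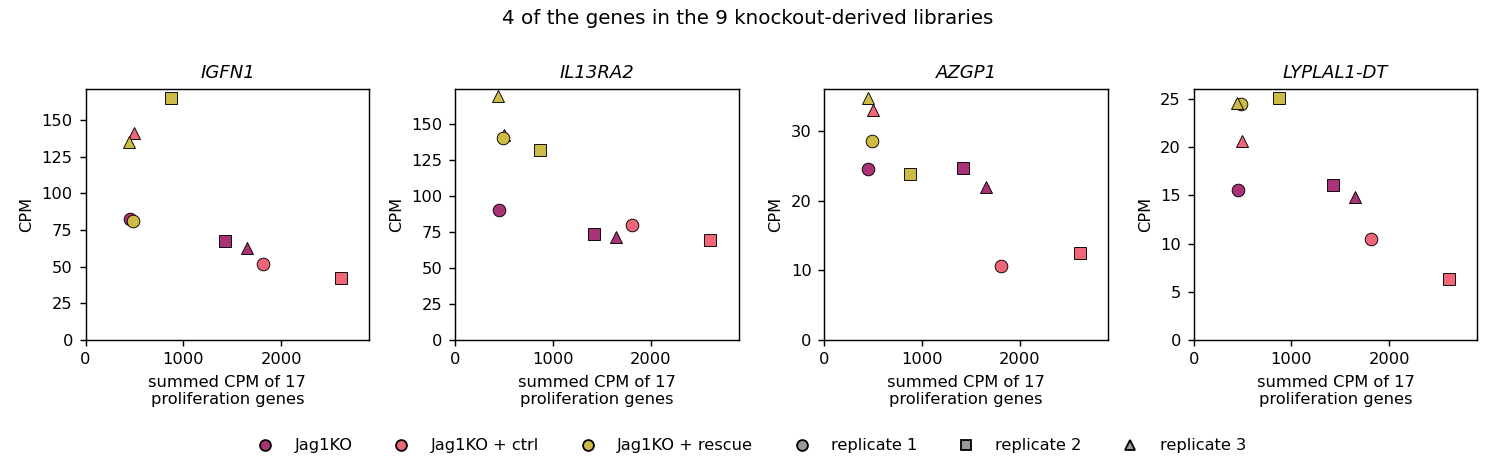
CPM of 4 genes against the summed CPM of 17 proliferation genes in the 9 knockout-derived libraries, with colour for the group and marker shape for the replicate. Jag1KO + ctrl replicate 3 (499 CPM on the horizontal axis) lies beside the rescue libraries, apart from Jag1KO + ctrl replicates 1 and 2 (1810 and 2610).

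The members resembled each other to different degrees. Over the 18 libraries the pattern most like that of IGFN1, by Pearson's r of log2(CPM + 1), was that of IL13RA2 (0.976) and then CSMD1 (0.969), and AZGP1 was most like IGFN1 (0.959). IL13RA2 was most like MAGEC2 (0.978), CSMD1 like LINC02864 (0.976), LYPLAL1-DT like LRRC2 (0.976), PLCB1 like LSR (0.935), PVT1 like ELFN1-AS1 (0.926), EML1 like LINC00342 (0.904) and KCNN3 like PDZK1IP1 (0.893). These values mostly restate the step between both origins, which all points share. Within the 9 knockout-derived libraries r was 0.853 for IGFN1 with IL13RA2, 0.863 for IGFN1 with LYPLAL1-DT and −0.307 for IGFN1 with KCNN3. KCNN3 and EML1, both lower in the rescue libraries than in Jag1KO, ran together there (0.740).

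Per length of transcript the genes spanned a wide range. In Jag1WT, by the authors' values per kilobase (RPKM), IL13RA2 was at 15.3, PVT1 at 11.4, AZGP1 at 5.14 and LYPLAL1-DT at 2.57. IGFN1 (0.680), KCNN3 (0.518), PLCB1 (0.475), EML1 (0.253) and CSMD1 (0.0392) were all below 1. In Jag1KO the levels per kilobase were 57.0 for IL13RA2, 5.96 for IGFN1 and 0.679 for CSMD1, so that CSMD1 after its increase was at the level IGFN1 had before.

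PLCB1 is the only member on the chromosome of JAG1, with 2.54 Mb between their starts. IGFN1, KCNN3 and LYPLAL1-DT are on chromosome 1, with 46.3 Mb from KCNN3 to IGFN1 and 17.9 Mb from IGFN1 to LYPLAL1-DT. CSMD1 and PVT1 are 123 Mb apart on chromosome 8, and AZGP1 is on chromosome 7, EML1 on chromosome 14 and IL13RA2 on the X chromosome. Of genes tested within 1 Mb, the numbers called in Jag1KO + ctrl against siCtrl, where 4.32% of all genes tested were called, were 2 of 48 around KCNN3 (PBXIP1 and MUC1), 2 of 45 around AZGP1 (ZNF789 and CNPY4) and 1 of 2 around PLCB1 (PLCB4). They were 0 of 17 around IGFN1, 0 of 8 around EML1, 0 of 6 around LYPLAL1-DT, 0 of 3 around PVT1, 0 of 2 around IL13RA2 and 0 of 1 around CSMD1. The shares around KCNN3 and AZGP1 are near that of all genes. Neighbours were placed by symbol in the GENCODE 44 annotation, which held 12855 of the 13323 genes tested. CCAT1, transcribed near MYC and called lower in this comparison, was not among the 3 genes counted around PVT1. The counts around each member can therefore miss genes.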

How the data were processed

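RNA of 18 spheroid cultures, 3 in each of 6 groups, was sequenced by the authors from stranded poly(A) libraries. Reads were aligned to hg38, and the deposited counts are uniquely mapped reads per gene, given by Entrez number and symbol. The labels name featureCounts, edgeR 3.28.0 and R 3.6.1. Whether counting used the strand is not given in the sources used here. The deposited CPM are those counts over the authors' TMM library size, so that the signal does not sum to the same total in each library, and the authors' RPKM are the CPM divided by 1 length per gene, as checked on the values. For 3 of the RPKM columns no label fitted, and these were left out.

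Of 21411 genes, 292 without a symbol (up to 0.0442% of a library's counts) were left out. Genes above 1 CPM in at least 3 of 18 libraries were tested, 13323 in all, so that genes read in only some groups stayed in. The counts of all 18 libraries were fitted at once with the quasi-likelihood test of edgeR 4.0.16 in R 4.3.3, two-sided, with TMM normalization and Benjamini-Hochberg adjustment over all genes tested. Standard errors and 95% intervals come from that fit. A self-test on simulated counts with known fold changes was run. The authors used ROTS instead. Named besides the 9 genes are those of lists of related genes, neighbours and markers, called genes of these lists, and the 2 genes most like each member. The 9 genes and these lists were chosen with earlier results of these data known. The list of genes related to CSMD1 is not reported here.

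Same-numbered libraries shared their deviations from the group means in siJag1 and siCtrl (r = 0.527, 0.516 and 0.255 across genes) and in Jag1KO + rescue and siCtrl (0.539, 0.717 and 0.221), but not in all pairs of the other comparisons. No 2 libraries of a group agreed within sampling noise. RefSeq tables gave the promoters and the positions of the members and JAG1. The starts of neighbouring genes came from GENCODE 44, so genes without a matching symbol there are missing from the neighbour counts. Figures were drawn with matplotlib 3.10.9.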

Additional observations from a re-analysis of the deposited data

How the results depend on the processing

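Of the counts of called members, 146 alternatives stayed within 1.5 times the value given and 22 moved. In siJag1 against siCtrl 0 members were called under every alternative run, also in DESeq2 and limma. In Jag1KO + rescue against Jag1KO + ctrl (1 called), 3 were called with DESeq2, 3 with limma on log2(CPM + 1), 2 with the filter of 1 CPM in at least 9 libraries, 0 in the fit of those libraries alone and 4 without the 3 libraries that stood apart (Jag1KO replicate 1, Jag1KO + ctrl replicate 3 and siJag1 replicate 2), and 0 to 4 when each library was left out in turn. With the replicate number as a block it was 4 over all libraries and 0 over those compared, where numbers did not pair the groups. The counts with DESeq2, limma, the filter of 9 libraries and the block over all libraries mix directions. They include EML1, lower with JAG1 returned, and their other members were higher. In Jag1KO + ctrl against siJag1 (8 called) 1 was called in the fit of those libraries alone. The difference between the siRNA and add-back effects (0 called) was called for 1 member with DESeq2, 2 with the replicate block over all libraries, 4 without the 3 libraries, and 0 to 5 with each library left out. In Jag1KO + rescue against siCtrl the block, which adds EML1, changed no other call. The share of all genes called under these alternatives is not given here, apart from the add-back without Jag1KO + ctrl replicate 3. The counts of members are therefore not set against all genes.

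Estimates of the members kept their direction except near 0. On log2(CPM + 1) those of low genes were smaller by construction, in Jag1KO + ctrl against siCtrl 3.37 for CSMD1, −1.32 for PLCB1 and 1.67 for EML1. With siRNA, KCNN3 turned to −0.0796 without the 3 libraries and ran from −0.0766 (without siJag1 replicate 2) to 0.4568 over the fits that left out 1 library. EML1 ran from −0.3275 (without siCtrl replicate 2) to 0.2558 and was also negative without siJag1 replicate 1 (−0.1876). PLCB1 turned to −0.1493 without the 3 libraries and ran from −0.1471 (without siJag1 replicate 2) to 0.2509, with −0.0937 without siCtrl replicate 3. With add-back, PVT1 ran from −0.1135 (without Jag1KO + rescue replicate 1) to 0.3910. In the difference of both effects, KCNN3 turned to −0.2524 without the 3 libraries and ran from −0.2467 (without siJag1 replicate 2) to 0.2819, with −0.0407, −0.0071 and −0.0039 without siCtrl replicate 3, Jag1KO + ctrl replicate 2 or Jag1KO + rescue replicate 2. PVT1 ran from −0.2583 (without Jag1KO + rescue replicate 1) to 0.2454, with −0.0680 without Jag1KO + ctrl replicate 2. The causes were not tested. Reads limit PLCB1 in knockout-derived and CSMD1 in parental libraries, at 2 to 14 and 4 to 19 a library.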
